A study of Mus musculus with 8 samples.

Results

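Polq and 8 of its partners in alternative end joining were followed across 8 RNA-seq libraries of mouse 2-cell embryos. The members were named by gene symbol, and earlier results of these data were known when they were chosen. They were Polq, Parp1, Parp2, Lig1, Lig3, Xrcc1, Fen1, Rbbp8 and Rhno1, 9 of the 55487 genes in the deposited table. All 9 passed the filter on low counts, which left 13146 genes to test. The 4 knockdown-labelled samples were embryos injected with CasRX, an RNA-guided nuclease that cuts RNA, together with a guide RNA against Polq, and the labels give their genotype as polq knockdown. The 4 control samples were embryos injected with CasRX, with the genotype label WT, and the labels name no control guide for them. In both groups the injection was made at the 1-cell stage, 20 h after hCG (the hormone given to trigger ovulation), and pools of 5 embryos were lysed for RNA after a further 10 h, as 2-cell embryos. The sources used here give neither the strain of the embryos nor the position of the guide on the Polq transcript.

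Alternative end joining, also called theta-mediated end joining, repairs broken DNA through short matching stretches on both sides of the break. Rbbp8 (CtIP) starts the trimming that exposes these stretches, Parp1 and Parp2 mark the break with ADP-ribose chains, and DNA polymerase theta, the product of Polq, anneals and extends the ends. Fen1 cuts the flaps that are left over, and Lig3, held by the scaffold Xrcc1, or Lig1 seals the strand. Rhno1 binds the 9-1-1 damage clamp and, in human cells, links it to polymerase theta in mitosis. At the 2-cell stage the embryo still carries RNA stored by the oocyte and begins its own transcription, so the RNA of a repair gene can come from either source.

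In GRCm38, chromosome 16 carries Polq (ENSMUSG00000034206.15) between 37011786 and 37095417, in 31 separate exonic regions that sum to 9685 bases. Parp1 (ENSMUSG00000026496.11) lies on chromosome 1 from 180568924 to 180601254 and Parp2 (ENSMUSG00000036023.6) on chromosome 14 from 50807841 to 50821301. Lig1 (ENSMUSG00000056394.17) lies on chromosome 7 from 13277283 to 13311433, Xrcc1 (ENSMUSG00000051768.9) on the same chromosome from 24546289 to 24573440, and Lig3 (ENSMUSG00000020697.16) on chromosome 11 from 82781108 to 82804274. Fen1 (ENSMUSG00000024742.15) lies on chromosome 19 from 10199132 to 10204169, and Rhno1 (ENSMUSG00000048668.16) on chromosome 6 from 128357000 to 128362911. The annotation calls all of them, and Rbbp8, protein-coding. Fen1 and Rhno1 are on the minus strand and the others on the plus strand.

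The promoter windows of 3 members are shown because these genes span the behaviours found here: Polq, the targeted gene, Parp2, the member with the highest level for its length, and Lig3, whose RNA ranged from 0 to 20.2 CPM (counts scaled to the size of each library after TMM normalisation). Each window holds 250 bases before the RefSeq start site and 50 from it (GRCm38.p6, plus strand, chr16:37011536-37011835 for Polq, chr14:50807666-50807965 for Parp2 and chr11:82780859-82781158 for Lig3). Capitals mark matches to any of the 7 motifs named in the next paragraph, on either strand.
Polq: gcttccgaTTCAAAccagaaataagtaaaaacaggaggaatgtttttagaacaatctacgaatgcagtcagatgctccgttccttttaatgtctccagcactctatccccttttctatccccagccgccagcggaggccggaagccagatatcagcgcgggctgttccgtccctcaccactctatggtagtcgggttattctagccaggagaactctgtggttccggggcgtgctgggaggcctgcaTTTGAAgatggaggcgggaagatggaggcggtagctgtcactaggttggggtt
Parp2: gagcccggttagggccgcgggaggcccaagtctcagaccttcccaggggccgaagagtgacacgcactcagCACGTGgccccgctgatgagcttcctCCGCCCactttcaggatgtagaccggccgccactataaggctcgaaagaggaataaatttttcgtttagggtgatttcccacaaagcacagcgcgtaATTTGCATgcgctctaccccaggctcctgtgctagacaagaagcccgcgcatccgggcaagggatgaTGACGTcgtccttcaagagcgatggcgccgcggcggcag
Lig3: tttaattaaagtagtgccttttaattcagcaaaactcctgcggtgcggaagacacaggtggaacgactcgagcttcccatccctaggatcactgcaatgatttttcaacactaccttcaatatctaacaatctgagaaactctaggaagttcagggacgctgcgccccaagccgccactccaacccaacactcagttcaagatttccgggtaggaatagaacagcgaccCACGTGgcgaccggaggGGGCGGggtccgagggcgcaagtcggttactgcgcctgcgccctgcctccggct

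The RefSeq table held 10 windows of 7 members (all but Rbbp8 and Rhno1), and 7 motifs were searched on both strands. They were the core of CHR elements of cell-cycle promoters (TTTGAA), the GC box (GGGCGG), the CCAAT box (CCAAT), the E-box (CACGTG), the octamer (ATTTGCAT), the site of cAMP-response factors (TGACGT) and the TATA box (TATAAA). No match overlapped another. The Polq window held TTTGAA at 2 places and none of the other motifs. The match nearest to the start site began 3 bases before it, and 17.9% of all 32851 windows of this length held TTTGAA. The E-box was found in a window of Parp1, Parp2, Lig1, Lig3 and Fen1 and in 7.15% of all windows, while GGGCGG was found in Parp1, Parp2, Lig1 and Lig3 and in 35.7% of all windows. The Parp2 window also held ATTTGCAT, found in 1.74% of all windows, and TGACGT, found in 7.51%. The Fen1 windows held TTTGAA and TATAAA, which 13.6% of all windows held, and the Xrcc1 window held CCAAT, which 37.4% held. Lig1 and Fen1 had several windows each, and a match in any of them was counted, while the percentages are of single windows. These matches are descriptions of the letters and not measured binding sites.

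The libraries differed in depth by group. The knockdown-labelled libraries held 4726160 to 33650068 counts and the control libraries 33311679 to 43748629, and only knockdown-labelled replicate 4 was as deep as the controls. Knockdown-labelled replicates 1, 2 and 3 were the 3 shallow libraries, so that depth and label cannot be told apart among them. The 9 members together held 802, 2315, 1586 and 7132 counts in knockdown-labelled replicates 1 to 4, against 7239, 5625, 7627 and 9754 counts in control replicates 1 to 4. Markers of the labelled stage were present: 9 of 10 markers of the 2-cell embryo were in the table. Their sum was 1188 to 1887 CPM in the knockdown-labelled libraries and 1159 to 1686 CPM in the controls. All 10 markers of RNA stored by the oocyte had counts. They summed to 31906.7 to 48349.7 CPM in the knockdown-labelled libraries and 38662.5 to 44960.2 CPM in the controls. Most of this was Dppa3, at 27994.3 to 43930.3 CPM in the knockdown-labelled libraries and 32522.9 to 40150.2 CPM in the controls. Whether the members' RNA was stored or newly made was not tested. Of 12 markers of cumulus and granulosa cells, 7 were at 0 in all libraries, Foxl2 and Fshr among them, and 5 had counts. Amhr2 was above 0 in every library, at 1.78 to 7.40 CPM in the knockdown-labelled libraries and 0.914 to 7.48 CPM in the controls. Tnfaip6 reached 10.7 CPM in the knockdown-labelled libraries and 16.2 CPM in the controls. The 12 summed to 2.58 to 16.6 CPM in the knockdown-labelled libraries and 6.33 to 25.5 CPM in the controls. Of 6 sperm markers, 5 were at 0 in all libraries, and Prm2 reached 7.34 CPM in the knockdown-labelled libraries and 7.06 CPM in the controls. Of 6 markers of blastocyst lineages, 3 were at 0 in all libraries, and the 6 summed to 0.909 to 8.26 CPM in the knockdown-labelled libraries and 1.65 to 3.96 CPM in the controls. In pools of embryos, fewer cells with a given RNA and less of it per cell cannot be told apart.

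The 9 members fell into those counted well in every library and those that came and went between libraries of the same group. Polq, Parp2, Rbbp8 and Rhno1 had at least 85 counts in each of the 8 libraries. Parp1, Lig1, Lig3, Xrcc1 and Fen1 each had at least 1 library with under 10 counts, and 4 of them (all but Parp1) had at least 1 library at 0. No member passed the test between the groups across all genes, and the levels of the 2 groups overlapped for all 9 members.

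**Figure D1:**
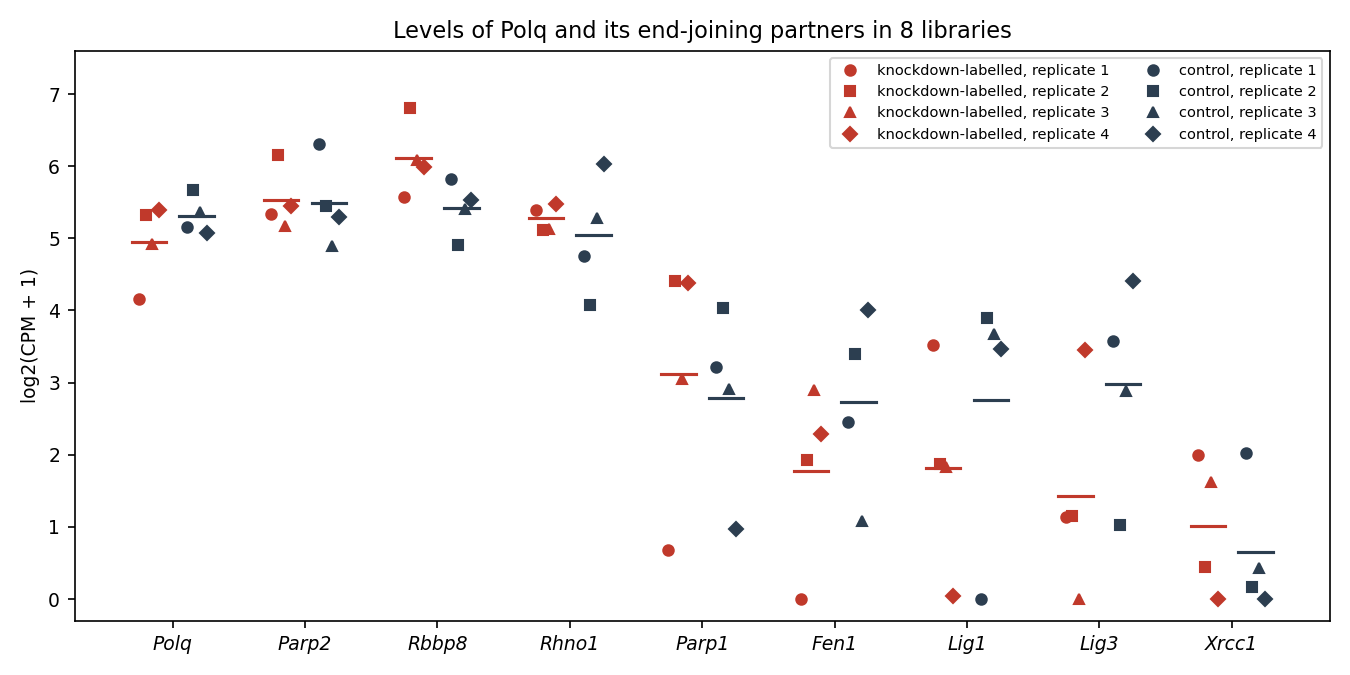
Level of each member as log2(CPM + 1) in the 4 knockdown-labelled libraries (red, left) and the 4 control libraries (dark, right), with a marker shape per replicate number and a line at each group's mean. Polq, Parp2, Rbbp8 and Rhno1 sit high and close together, while the other 5 members spread over several log2 units.

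Polq, the target of the guide, was at 16.9, 38.9, 29.2 and 41.1 CPM in knockdown-labelled replicates 1 to 4, against 34.6, 49.7, 40.1 and 32.7 CPM in control replicates 1 to 4. Replicates 1 and 3 of the knockdown-labelled group lay below all controls, and replicates 2 and 4 lay inside the control range. The fitted level was 80.4% of control (edgeR, 95% interval from 47.8% up to 135%). The log2 fold change was −0.32 (SE 0.34, adjusted p = 1.0 in edgeR), and a 2-sided exact permutation test over the 70 assignments of 4 of 8 libraries gave p = 0.343, where 0.0286 is the smallest it can give. Because the Polq levels of both groups overlapped, the libraries given the Polq guide go by their label, knockdown-labelled, throughout.

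Rbbp8 (ENSMUSG00000041238.16, chromosome 18 from 11633276 to 11745221), which starts end trimming, was the member with the smallest p. It was at 46.8, 111, 66.7 and 62.4 CPM in knockdown-labelled replicates 1 to 4, against 55.8, 29.1, 41.5 and 45.1 CPM in control replicates 1 to 4. Replicates 2, 3 and 4 of the knockdown-labelled group lay above all controls, and replicate 1, the shallowest, lay inside the control range. The fitted log2 fold change was 0.74 (SE 0.32, 95% interval 0.025 to 1.46, edgeR unadjusted p = 0.0438, adjusted p = 1.0), and the exact permutation p was 0.0571. Rbbp8 was 1 of 9 members at an unadjusted p under 0.05, beside 2.81% of all 13146 genes (1.1% higher and 1.71% lower in knockdown-labelled libraries). It did not pass the adjusted threshold, which 0.0% of genes passed. Without knockdown-labelled replicate 2 its log2 fold change was 0.46, and with all libraries thinned to the smallest total, a step added after seeing the data, it was 0.75. An annotated antisense gene shares 402 bases of its exons, and the sources used here do not say whether counting used strand.

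The ADP-ribose polymerases differed from each other in level and in evenness. Parp2 was at 39.3, 70.2, 35.1 and 42.8 CPM in knockdown-labelled replicates 1 to 4 and at 78.2, 42.5, 28.6 and 38.4 CPM in control replicates 1 to 4, so that all 4 knockdown-labelled libraries lay inside the control range. Its fitted level was 99.9% of control (95% interval 56.6% to 176%, edgeR adjusted p = 1.0). Parp1 was at 0.595, 20.2, 7.28 and 19.8 CPM in knockdown-labelled replicates 1 to 4 and at 8.25, 15.4, 6.52 and 0.954 CPM in control replicates 1 to 4. It was nearly absent in 1 library of each group, on 3 counts in knockdown-labelled replicate 1 and 41 counts in control replicate 4. Its fitted log2 fold change was 0.63 (SE 1.01, edgeR adjusted p = 1.0). It was 1.02 and 0.27 without knockdown-labelled replicates 1 and 2, 0.27 without replicate 4 of that group, 1.2 and 0.26 without control replicates 2 and 4, 0.32 with a replicate block and 1.35 in limma-voom.

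Lig1 and Lig3, the ligases, were both uneven within groups. Lig1 was at 10.5, 2.67, 2.54 and 0.0313 CPM in knockdown-labelled replicates 1 to 4, against 0, 13.9, 11.7 and 10.1 CPM in control replicates 1 to 4. Lig3 was at 1.19, 1.21, 0 and 9.90 CPM in knockdown-labelled replicates 1 to 4, against 10.98, 1.04, 6.38 and 20.2 CPM in control replicates 1 to 4. Both ligases had libraries at or near 0 and libraries near 10 CPM within the knockdown-labelled group, and their groups overlapped. The 0 of Lig1 in control replicate 1 stands against 440, 513 and 432 counts in the other controls, and a count of 0 there allows a level of up to 0.0917 CPM (3 counts, counting error only). The fitted log2 fold changes were −1.19 (SE 1.63) for Lig1 and −1.62 (SE 1.39) for Lig3, both with an adjusted p of 1.0 in edgeR. Without knockdown-labelled replicate 4 the value for Lig3 was −3.60, and without knockdown-labelled replicate 1 the value for Lig1 was −2.37. Lig3 shares 1826 exonic bases with Rffl on the other strand, which was at 9.72, 25.1, 42.3 and 7.49 CPM in knockdown-labelled replicates 1 to 4 and 20.1, 10.2, 15.5 and 12.7 CPM in control replicates 1 to 4. Whether the shared bases moved counts between Lig3 and Rffl was not tested.

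**Figure D2:**
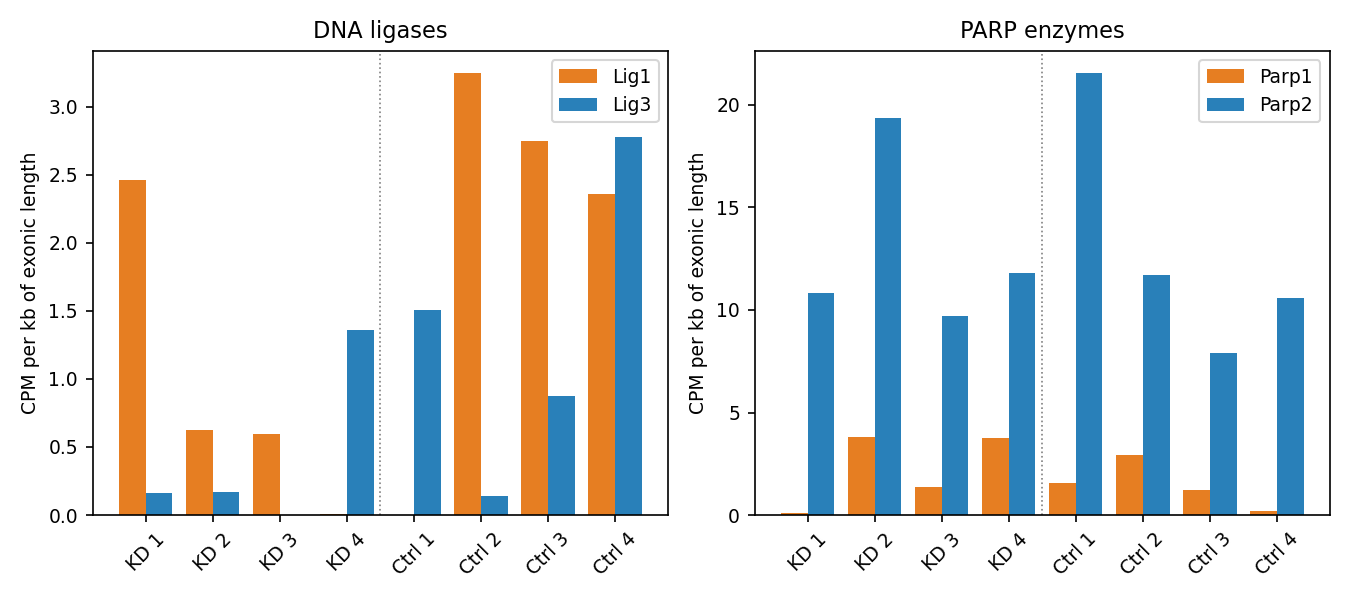
Lig1 beside Lig3 (left panel) and Parp1 beside Parp2 (right panel) in each knockdown-labelled library (KD 1 to 4) and each control library (Ctrl 1 to 4), as CPM per kilobase of exonic length. The ligase with the higher bar changes from library to library in both groups, while Parp2 stands above Parp1 in every library.

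Set per kilobase of exonic length, the share of Lig1 in the sum of both ligases was 93.8%, 79.0%, 100% and 0.537% in knockdown-labelled replicates 1 to 4, and 0%, 95.8%, 75.8% and 45.9% in control replicates 1 to 4. This share was computed after the values had been seen and was not tested. In knockdown-labelled replicates 1, 2 and 3 it rested on 53, 22 and 22 counts of Lig1 and 6, 10 and 0 counts of Lig3. No library was without ligase RNA: the sum ran from 0.596 to 2.63 CPM per kb in the knockdown-labelled libraries and from 1.51 to 5.13 CPM per kb in the controls. The corresponding share of Parp1 in the sum with Parp2 stayed between 1.03% and 24.1% in the knockdown-labelled libraries and between 1.67% and 19.9% in the controls, with Parp2 above Parp1 in all 8 libraries.

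Xrcc1, the scaffold of Lig3, was the scarcest member. It had 15, 3, 18 and 0 counts in knockdown-labelled replicates 1 to 4 (2.97, 0.364, 2.08 and 0 CPM), against 100, 4, 15 and 0 counts in control replicates 1 to 4 (3.06, 0.126, 0.343 and 0 CPM). The highest control, replicate 1, was level with the highest knockdown-labelled library, and each group had a library at 0. Its fitted log2 fold change of 0.60 had an SE of 1.91, turned to −0.13 without knockdown-labelled replicate 1 and was 3.06 without control replicate 1, so that no direction could be read. Fen1, the flap nuclease, was at 0, 2.79, 6.47 and 3.89 CPM in knockdown-labelled replicates 1 to 4, against 4.46, 9.54, 1.12 and 15.03 CPM in control replicates 1 to 4. Its groups overlapped, with 3 of 4 knockdown-labelled libraries inside the control range. The fitted log2 fold change was −1.19 (SE 1.25, edgeR adjusted p = 1.0), and −0.61 without control replicate 4. An antisense gene, Gm10143, covers 1909 of the 2422 exonic bases of Fen1. Gm10143 was highest at 2.97 CPM in knockdown-labelled replicate 1, where Fen1 was at 0, and reached 1.16 CPM in control replicate 4. Tmem258, also on the other strand, shares 130 exonic bases with Fen1. Whether the shared bases moved counts between Fen1 and these genes was not tested.

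Rhno1, the partner of the 9-1-1 clamp, was the most even member of the knockdown-labelled group. It was at 40.9, 33.5, 33.9 and 43.7 CPM in knockdown-labelled replicates 1 to 4, against 25.9, 15.9, 38.1 and 64.6 CPM in control replicates 1 to 4. All 4 knockdown-labelled libraries lay inside the wider control range. Its fitted log2 fold change was 0.072 (SE 0.41, 95% interval −0.84 to 0.99, edgeR adjusted p = 1.0), with the sign turning to −0.0075, −0.054 and −0.17 without knockdown-labelled replicate 4 and control replicates 1 and 2. On the other strand, Gm26770 shares 702 exonic bases with Rhno1 and Gm44371 shares 467. Gm26770 had 42 counts in knockdown-labelled replicate 2, 129 in control replicate 1 and 2 in control replicate 4. Gm44371 had 81 counts, all in control replicate 2. Whether the shared bases moved counts between these genes and Rhno1 was not tested.

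**Figure D3:**
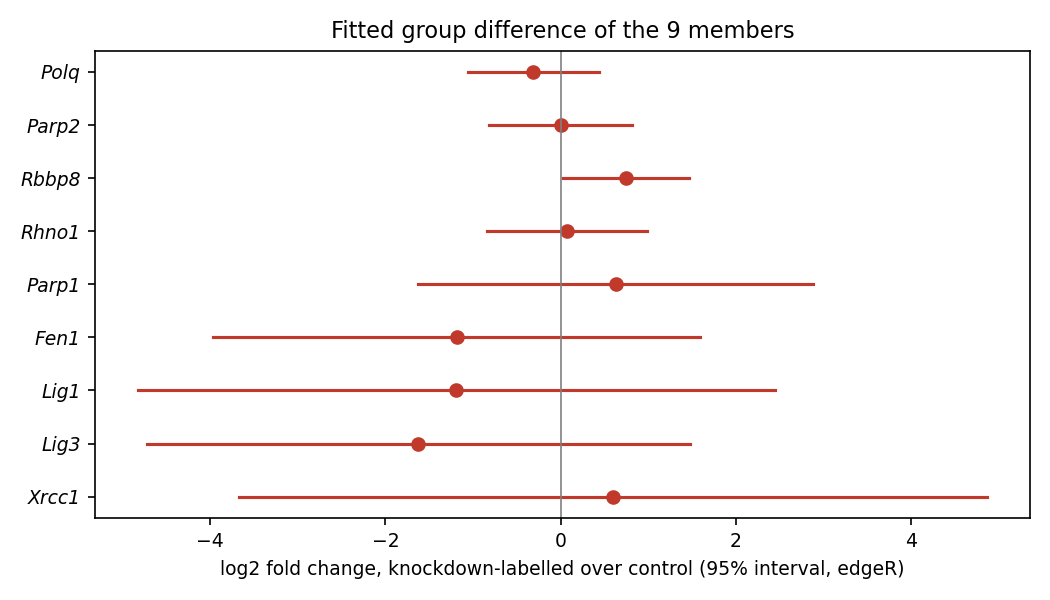
Fitted log2 fold change of each member, knockdown-labelled over control (points), with 95% intervals from edgeR (lines). The intervals of Polq, Parp2, Rbbp8 and Rhno1 are the narrowest, though that of Polq still runs from −1.06 to 0.43. Those of the other 5 members span several log2 units. Only the interval of Rbbp8 lies above 0, without adjustment for the 13146 genes tested.

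Over all 9 members, 4 had log2 fold changes above 0 and 5 below, beside 46.6% of all tested genes above 0, with a median of −0.0021 beside −0.047 over all tested genes. With 1 library left out the median of the members ran from −0.26 to 0.11. The intervals set the limit of what could be seen. The 95% interval ran from 55.8% to 198% of control for Rhno1 and from 102% to 276% for Rbbp8. For Lig1 it ran from 3.52% to 543% of control and for Xrcc1 from 7.86% to 2920%, so that large differences in these genes were not detectable. The groups did not overlap in 0 of the 9 members, beside 2.98% of all tested genes.

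Levels of different genes were compared per kilobase of exonic length. Averaged over the 8 libraries, Parp2 stood highest at 12.9 ± 4.85 CPM per kb (SD, n = 8), followed by Rhno1 at 7.41 ± 2.84, Rbbp8 at 4.58 ± 1.99 and Polq at 3.65 ± 1.004 CPM per kb. Then came Fen1 at 2.24 ± 2.03, Parp1 at 1.86 ± 1.46, Lig1 at 1.51 ± 1.33, Lig3 at 0.874 ± 0.967 and Xrcc1 at 0.192 ± 0.232 CPM per kb. Each neighbouring pair in this order overlapped in range over the 8 libraries. Parp2 was above Rhno1 in 7 libraries, Rhno1 above Rbbp8 in 7 and Rbbp8 above Polq in 6, while Fen1 and Parp1 each led the other in 4. With the length of the longest annotated transcript in place of all exons, Rbbp8 changed places with Rhno1 and Parp1 with Fen1.

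Within each library, the partners were set against Polq itself, so that the scaling of a library cancels. Per kilobase, Parp2 exceeded Polq in all 8 libraries, at 6.22, 4.82, 3.21 and 2.78 times in knockdown-labelled replicates 1 to 4 and at 6.03, 2.28, 1.90 and 3.14 times in control replicates 1 to 4. Rhno1 exceeded Polq in 7 of 8 libraries (all but control replicate 2, at 0.621 times) and Rbbp8 in 6 of 8 (all but control replicates 2 and 3, at 0.453 and 0.801 times). The remaining partners stood below Polq in nearly every library: Fen1 exceeded it in control replicate 4 alone, at 1.84 times, and Lig1 in knockdown-labelled replicate 1 alone, at 1.41 times. Parp1, Lig3 and Xrcc1 did so in none of the 8, with highest values of 0.949, 0.822 and 0.293 times Polq. With the longest transcript as the length, a comparison added after seeing the data, Parp1 exceeded Polq in 2 libraries (knockdown-labelled replicates 2 and 4, at 1.16 and 1.07 times) and Rbbp8 in 7, while the counts of the other 6 partners were as above.

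**Figure D4:**
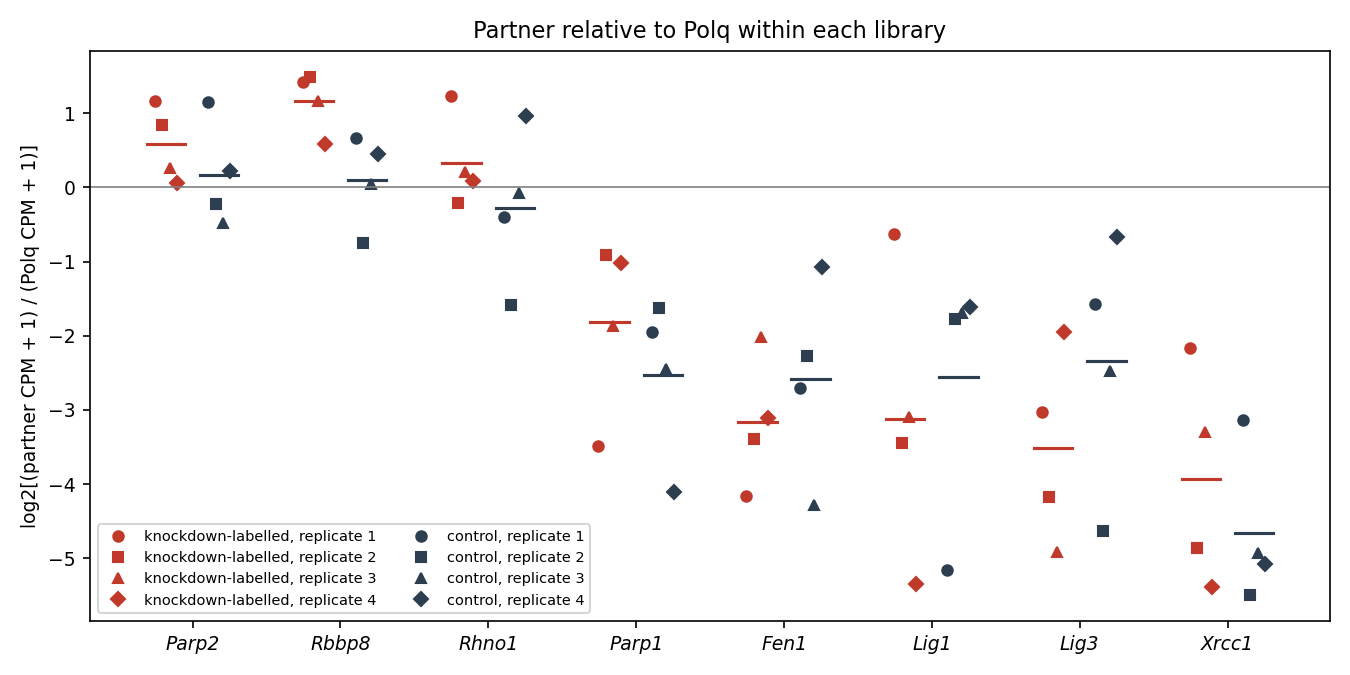
Log2 ratio of each partner to Polq in the same library, with 1 CPM added to both, for knockdown-labelled libraries (red, left) and control libraries (dark, right), with lines at group means. Most values of Parp2, Rbbp8 and Rhno1 lie near or above the line at 0. Their lowest were −0.47 for Parp2 in control replicate 3, and −0.75 for Rbbp8 and −1.58 for Rhno1 in control replicate 2. The 3 highest Rbbp8 values belong to knockdown-labelled replicates 1, 2 and 3.

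Among the 8 partners, the ratio of Rbbp8 to Polq showed the largest separation of the groups relative to its spread. In CPM without correction for length, Rbbp8 was 2.78, 2.87, 2.28 and 1.52 times Polq in knockdown-labelled replicates 1 to 4, against 1.61, 0.585, 1.04 and 1.38 times in control replicates 1 to 4. Knockdown-labelled replicates 1, 2 and 3 lay above all controls, and replicate 4, the only deep library of that group, lay just below control replicate 1. The mean log2 ratio was 1.17 ± 0.41 in knockdown-labelled libraries and 0.11 ± 0.63 in controls (SD, n = 4 each), a difference of 1.06 with a 2-sided exact permutation p of 0.0571. Adjusted over the ratios of all 13145 other tested genes to Polq, p was 0.916. No gene could have passed this adjustment. The smallest p the permutation test can give is 0.0286, and 3.0% of the tested genes reached it. The adjusted p therefore does not decide whether the ratio differed. With replicate 4 as the only knockdown-labelled library the difference was 0.49, a value with no test, and with all libraries thinned to the smallest total it was 1.07 (exact permutation p = 0.0571).

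The other 7 partners differed less relative to their spread. The difference in mean log2 ratio was 0.41 for Parp2, 0.60 for Rhno1, 0.71 for Parp1 and 0.73 for Xrcc1. It was −0.57 for Lig1, −0.59 for Fen1 and −1.18 for Lig3. Exact permutation p-values ran from 0.314 for Lig3 to 0.629 for Lig1 (8 partners compared). The adjusted p-values were at least 0.938, and they could not have passed for the reason given for Rbbp8. With 1 library left out these differences ran from 0.20 to 0.74 for Parp2, 0.17 to 1.01 for Rhno1, 0.19 to 1.26 for Parp1, 0.14 to 1.23 for Xrcc1, −1.44 to 0.17 for Lig1, −1.15 to −0.082 for Fen1 and −1.95 to −0.62 for Lig3. The groups overlapped in all 8 ratios, beside 3.0% of all tested genes whose ratio to Polq did not overlap. Ratios were higher in the knockdown-labelled libraries for 5 of 8 partners, beside 73.5% of all tested genes. All ratios of a library share its Polq level, which was lowest in knockdown-labelled replicate 1. The 1 CPM added to both genes moves the log2 ratios of members at or near 0 towards 0.

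Among genes that averaged 10 CPM or more, the partners were not those that tracked Polq most evenly. The SD of the log2 ratio to Polq over the 8 libraries was 0.62 for Parp2, 0.75 for Rbbp8 and 0.86 for Rhno1, which placed them at ranks 2115, 3374 and 4196 of 6048 genes, around the median SD of 0.71. The other 5 partners were below that mean level, and their SDs ran from 1.09 for Fen1 to 1.73 for Lig1. The genes with the most even ratio were Cep70 (SD 0.16), Atm (0.17), Oas1h (0.19), Trpm7 (0.20) and Pkm (0.22), after predicted genes were left out. Cep70 is a centrosomal protein, Atm a kinase that signals DNA breaks, Trpm7 a cation channel with a kinase domain and Pkm pyruvate kinase. Atm was at 7.19, 6.62, 7.50 and 6.29 times Polq in knockdown-labelled replicates 1 to 4 and at 5.16, 5.78, 6.20 and 5.64 times in control replicates 1 to 4. Its ratios in the 2 groups did not overlap, beside 3.0% of all tested genes whose ratio to Polq did not. This list rested on single libraries: without knockdown-labelled replicate 1, which has the lowest Polq level, none of the 5 genes was among the 5 most even. Without knockdown-labelled replicate 2 only Cep70 was, and without control replicate 2 only Cep70 and Oas1h.

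The scarce members were uneven, as were many other genes at their level. Over the 4 knockdown-labelled libraries the coefficient of variation was 80.7% for Parp1, 115% for Lig1, 149% for Lig3, 104% for Xrcc1 and 81.5% for Fen1. The median over genes within 1.5-fold of each in mean CPM was 53.9%, 80.7%, 85.4%, 103% and 84.5% in the same order. Over the 4 controls it was 76.5% for Parp1, 68.9% for Lig1, 84.2% for Lig3, 165% for Xrcc1 and 80.6% for Fen1, beside medians of 66.9%, 62.5%, 61.3%, 107% and 67.5%. Lig3 in the knockdown-labelled libraries varied more than 93.4% of the 2284 genes at its level. Polq stood out the other way in the controls, with a coefficient of variation of 19.5%, lower than in all but 12.5% of 1576 genes at its level. In the knockdown-labelled libraries its coefficient was 35.0%, near the median of 36.5% for its level. Rhno1 varied by 13.4% in the knockdown-labelled libraries, where 6.06% of genes at its level varied less, and by 58.1% in the controls, where 84.8% varied less.

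**Figure D5:**
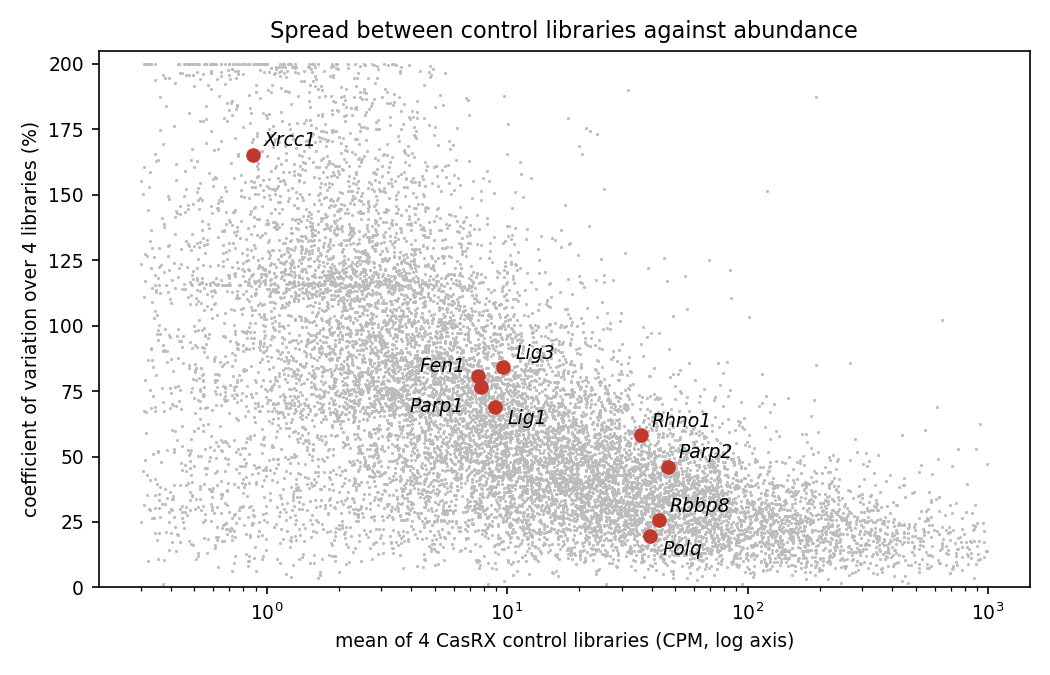
Coefficient of variation over the 4 control libraries (%) against mean CPM on a log axis, for the tested genes (grey) and the 9 members (red). Polq lies in the lower part of the cloud at its level, and Parp1, Lig1, Lig3 and Fen1 lie inside it.

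The wider machinery around Polq was read from 6 lists with 62 genes, of which 54 could be tested. None was called higher and none lower, and at an unadjusted p under 0.05 there were 3 (Plk1, Palb2 and Xrcc4), beside 2.81% of all tested genes. These were also the 3 whose groups did not overlap, beside 2.98% of all tested genes. Log2 fold changes were above 0 for 22 and below 0 for 32, with a median of −0.075. All 10 genes of break trimming were tested, with 3 above and 7 below 0 (median −0.13, from −0.36 to −0.016 with 1 library left out). Their most abundant member was the kinase Atm at 214 ± 64.5 CPM in knockdown-labelled libraries and 225 ± 52.5 CPM in controls (SD, n = 4 each). Nbn and Rad50, both of the complex that binds broken ends with Mre11a, were at 8.93 ± 5.41 and 25.5 ± 11.2 CPM in knockdown-labelled libraries and at 5.38 ± 5.45 and 37.1 ± 16.1 CPM in controls.

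Of the partners of Parp1, Xrcc1 and Lig3, 7 of 10 could be tested, with 2 above and 5 below 0 (median −0.26, from −0.34 to −0.086 with 1 library left out). Hpf1, which directs the PARP enzymes to serine residues, was far above the enzymes themselves in CPM, at 1344 ± 200 CPM in knockdown-labelled libraries and 1389 ± 257 CPM in controls. Aptx, which clears failed ligation ends, was at 23.7 ± 14.9 CPM in knockdown-labelled libraries and 5.96 ± 5.50 CPM in controls (log2 fold change 1.99, SE 1.11, edgeR adjusted p = 1.0). DNA polymerase beta, Polb, which fills gaps with Xrcc1, was at 27.9 ± 10.5 CPM in knockdown-labelled libraries and 41.6 ± 12.2 CPM in controls.

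Among the 9-1-1 clamp, its loader and the mitotic partners of Rhno1 and Polq, 9 of 10 could be tested, with 3 above and 6 below 0 (median −0.32, from −0.52 to −0.14 with 1 library left out). Rad17, the loader of the clamp, was at 49.9 ± 7.47 CPM in knockdown-labelled libraries and 52.2 ± 28.3 CPM in controls, and the clamp subunit Hus1 at 20.0 ± 4.75 CPM in knockdown-labelled libraries and 35.4 ± 16.6 CPM in controls. The mitotic kinase Plk1, which in human cells phosphorylates polymerase theta, had a log2 fold change of 1.58 (SE 0.60, edgeR adjusted p = 1.0). Of the flap and strand removal genes, 7 of 8 could be tested, with 2 above and 5 below 0 (median −0.12). With 1 library left out, the median of that list ran from −0.29 to 0.10. The nuclease subunit Ercc1 was at 184 ± 88.0 CPM in knockdown-labelled libraries and 119 ± 87.1 CPM in controls, and the flap-trimming nuclease Apex2 at 3.39 ± 2.44 CPM in knockdown-labelled libraries and 6.08 ± 4.93 CPM in controls.

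The list of Polq relatives and polymerase delta genes also holds Pcna, Rfc1 and Hmces. Of its 9 genes 6 could be tested, with 3 on each side of 0 (median 0.017, from −0.12 to 0.15 with 1 library left out). Those not tested were the polymerase delta subunits Pold1, Pold2 and Pold4, with 4, 73 and 357 counts over all libraries together. The sliding clamp Pcna was at 200 ± 35.1 CPM in knockdown-labelled libraries and 207 ± 58.2 CPM in controls. Hmces, which shields abasic sites, was at 156 ± 29.6 CPM in knockdown-labelled libraries and 125 ± 40.3 CPM in controls, and the clamp loader subunit Rfc1 at 55.6 ± 12.3 CPM in knockdown-labelled libraries and 60.7 ± 13.03 CPM in controls. All 15 genes of competing repair routes were tested, with 9 above and 6 below 0 (median 0.047, from 0.021 to 0.33 with 1 library left out). Rif1, which protects ends from trimming, was the most abundant, at 431 ± 38.0 CPM in knockdown-labelled libraries and 417 ± 75.8 CPM in controls. Palb2 of homologous recombination and Xrcc4 of classical end joining had the smallest p in each direction, with log2 fold changes of 0.73 (SE 0.30) and −1.86 (SE 0.51) and an adjusted p of 1.0 each in edgeR.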

How the data were processed

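RNA was measured in 8 libraries, 4 knockdown-labelled and 4 control, each from 5 pooled embryos and called biological replicates in the series text. Per the labels' protocols, TRIzol was used for RNA and a NEBNext Ultra kit for libraries. The authors deposited expected counts for each gene and library, without normalisation. The submitters' processing notes name Trim Galore 0.6.10, STAR 2.7.3a, RSEM 1.2.28 and the build GRCm38 (mm10). The sources used here do not give the annotation, the strand setting or any removal of duplicate reads. Reads shared by several genes are split by estimation in RSEM, which can move counts between related genes.

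Counts were rounded (4.22% of values altered). Genes were kept by filterByExpr by group (minimum count 10, minimum total 15), scaled by TMM and compared with edgeR 4.0.16 (robust quasi-likelihood test, group only) in R 4.3.3, with Benjamini-Hochberg adjustment over all 13146 genes and a threshold of 0.05. Expected counts do not separate molecules from amplified copies, so floors cover counting error only. A positive log2 fold change means higher in knockdown-labelled libraries, and CPM values are TMM-scaled. Ratios to Polq used a pseudocount of 1 CPM and 2-sided exact permutation tests. Exonic lengths, positions and overlaps came from GENCODE M21 (GRCm38), and promoter sequences from RefSeq (GRCm38.p6). The procedure was tested on simulated data. For edgeR the pass condition was set on counts with less spread between replicates than the common value fitted here. It therefore does not show what could be recovered from these libraries.

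The members and lists were chosen with earlier results of these data known. The genes named are all 9 members, in each list the gene with the smallest p in each direction and the most abundant one, and the 5 genes with the most even ratio to Polq. Alternatives were other scalings, filters, pseudocounts and lengths, DESeq2 1.42.0, limma-voom (limma 3.58.1), edgeR without robust hyperparameters, a replicate block, another threshold and each library left out. Thinning to the smallest library and leaving out the 3 shallow libraries were added after seeing the data.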

Additional observations from a re-analysis of the deposited data

Results flagged for a closer look

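Within groups of 4 libraries, 3 values of the members stood apart from the others of their group by the Dixon criterion, among 34 sets of values examined. Chance gives about 1 in 20 for normally distributed values. Levels in CPM with values at or near 0 need not be so distributed, and the levels and ratios share values, so this rate is a rough guide. The Lig3 level of knockdown-labelled replicate 4 was 9.90 CPM, while the other 3 knockdown-labelled libraries were at 1.21 CPM or below. The Xrcc1 level of control replicate 1 was 3.06 CPM, while the other 3 controls were at 0.343 CPM or below. The log2 ratio of Lig1 to Polq in control replicate 1 was −5.15, while the other 3 controls lay between −1.77 and −1.61. Lig1 was at 0 counts in control replicate 1, so the 1 CPM added to both genes set how low this ratio could go.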

How the results depend on the processing

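No member passed the adjusted threshold under any alternative run, and nor did any listed gene tested with other size factors, a stricter filter (45 genes) or 1 library left out; over all genes DESeq2 called 20 where edgeR called 0, edgeR with each library left out called 0, and 369 genes had an unadjusted p under 0.05. The Polq log2 fold change ran from −0.47 to −0.11 with 1 library left out and was 0.073 without knockdown-labelled libraries 1, 2 and 3. In the same setting the fold change of Lig3 was 0.040 and that of Xrcc1 −8.02 (fitted to a library at 0, so no bound), and the ratios to Polq were −0.11 for Parp2, 0.39 for Lig3 and −0.73 for Xrcc1. The Parp2 fold change, near 0, turned to 0.019 with DESeq2 size factors and with DESeq2, 0.030 with upper-quartile scaling, 0.020 with library totals, 0.023 with the stricter filter, 0.068 with limma-voom, 0.055 with the replicate block and 0.080 when thinned. With 1 library left out it ran from −0.26 to 0.37, Rhno1 from −0.17 to 0.51, Xrcc1 from −0.13 to 3.06, and the Lig1 ratio from −1.44 to 0.17. The cause of these turns was not tested. Of the 9 places per kilobase, 5 were kept with transcript lengths and 7 to 9 with 1 library left out. Of the 5 genes with the most even ratio, 3 were kept at 50 CPM and 0 to 5 with 1 library left out.

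Replicate numbers are shared between the groups, but same-numbered libraries did not deviate together (correlations from −0.22 to 0.034, and none of the 4 correlated best with its own number). With a replicate block the Polq log2 fold change was −0.38, and the Rbbp8 ratio had an exact sign-flip p of 0.125, the smallest that 4 pairs can give. Depth limits the knockdown-labelled group most: 3 counts correspond to 0.595 CPM in replicate 1, against 0.0686 CPM in the deepest control.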

Other observations

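Several partners share their start with a gene on the other strand, which Polq does not. An annotated gene on the opposite strand starts within 200 bases of Parp2, Lig3, Xrcc1, Fen1 and Rhno1, 5 of the 9 members, beside 13.3% of the 12788 tested genes with 1 annotated position. This was counted after the annotation had been seen and was not tested. Foxm1, a transcription factor of mitotic genes, starts 56 bases from Rhno1 and was at 2.18, 12.3, 9.36 and 3.17 CPM in knockdown-labelled replicates 1 to 4 and 9.05, 7.50, 9.36 and 4.33 CPM in control replicates 1 to 4, below Rhno1 in all 8 libraries. Rpph1, the RNA of RNase P, starts 74 bases from Parp2 and was at 8.50 ± 1.52 CPM in knockdown-labelled libraries and 10.9 ± 3.32 CPM in controls (SD, n = 4 each), and Ccnb1ip1, a ligase of meiotic crossing-over, starts 109 bases from it. Tmem258, a subunit of the oligosaccharide transferase, starts inside Fen1 and was at 103 ± 20.5 CPM in knockdown-labelled libraries and 85.0 ± 8.25 CPM in controls, in every library above Fen1. Pinlyp starts 171 bases from Xrcc1 and was at 26.8, 39.4, 58.4 and 16.4 CPM in knockdown-labelled replicates 1 to 4 and 30.6, 16.9, 5.31 and 14.9 CPM in control replicates 1 to 4, in every library above Xrcc1.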
